A study of Drosophila melanogaster with 18 samples.

Results

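The copper response of Drosophila DL1 cells that carried an inducible IntS6 transgene was compared, gene by gene, with the copper response of parental DL1 cells. The quantity reported is the copper-to-no-copper ratio of the IntS6 line divided by that of parental cells, on a log2 scale, so a value of 0 means equal responses and a positive value a larger rise or a smaller fall in the line. It used 12 of the 18 libraries of the study, 3 libraries (A, B and C) in each of 4 groups, and all 17753 gene identifiers of the count table, of which 8174 had enough counts to be tested. The other 6 libraries, from an IntS12 transgene line with and without copper, served as a second line that carries the same promoter.

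Parental cells were unmodified DL1, a cultured Drosophila line of the S2 type, either without copper or with 500 µM copper sulfate for the last 24 h of 3 d of growth. The IntS6 line was a DL1 population transfected with a FLAG-tagged IntS6 transgene behind the promoter of the metallothionein gene MtnA and kept under puromycin. It was sampled in the same 2 conditions, and the IntS12 line was a second such population with an IntS12 transgene. In the transgene lines copper is both the metal stress and the inducer, so within a line the 2 cannot be told apart, and the parental response stands in for the metal alone. The lines are selected populations and not clones, puromycin is stated for them only, and the labels call the uninduced lines WT although the plasmid was present. The labels do not state separate cultures for libraries A, B and C, and p-values therefore rest on a spread between samples that may be technical only.

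Integrator is a complex that binds RNA polymerase II near promoters, cleaves the nascent RNA and so ends transcription early at some protein-coding genes. IntS6 belongs to the part of the complex that holds the phosphatase PP2A, which removes phosphates from the polymerase and its pausing factors. Copper salts switch on metallothioneins and other metal-handling genes through the transcription factor MTF-1, and misfolded proteins under metal stress switch on heat shock genes through Hsf.

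IntS6 itself (FBgn0261383, BDGP6.54 chromosome X, 5738663 to 5747254, minus strand) stood at 26.3, 29.0 and 28.7 CPM (counts scaled to the size of each library) in parental libraries A, B and C and at 35.3, 38.0 and 35.6 CPM with copper. In its line it stood at 69.9, 75.5 and 68.9 CPM without copper and at 2326, 2557 and 2215 CPM with copper. The labelled line was thus the one with high IntS6, and it was already 2.55-fold above parental cells before induction (edgeR quasi-likelihood adjusted p = 1.31e-10). Copper raised IntS6 33.1-fold in the line and 1.3-fold in parental cells, a log2 difference of 4.67 ± 0.11 (SE, adjusted p = 8.55e-19). IntS12 had a log2 difference of 0.09 ± 0.22 (adjusted p = 0.941), and the counts add transgene and endogenous transcripts together.

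The 12 libraries held 13217764 to 18214756 counts, of which 70.2% to 73.4% lay in rRNA genes and 3.69 to 4.94 M outside them. Hemocyte markers, the cell type that S2-type lines resemble, were all detected in each of the 4 groups. Their summed level was 295.7 to 326.2 CPM in parental cells, 288.9 to 317.6 CPM in parental cells with copper, 300.9 to 317.3 CPM in the IntS6 line and 354.8 to 419.6 CPM in the IntS6 line with copper. Of those 11 markers, 1 (Hml) was called in the comparison of responses. The 6 fat body markers and the 3 gut markers summed to 0.213 CPM at most in any library. Those of neurons, mostly elav, and of muscle summed to 24.0 and 1.75 CPM at most. The 2 glia markers, mostly moody, summed to 9.61 to 12.7 CPM in the induced IntS6 line and to 7.2 CPM at most in the other 3 groups. Mean moody with copper was 10.4 CPM in the IntS6 line, 8.29 CPM in the IntS12 line and 6.02 CPM in parental cells, so its rise was not particular to the IntS6 line. The 4 crystal cell markers, mostly peb, summed to 2.38 to 3.02 CPM in the induced line and to 1.22 CPM at most in the others. Neither moody (adjusted p = 0.217) nor peb (adjusted p = 0.298) passed the test of the difference of responses, and the part of either list in the results was not tested. Markers of ovarian somatic cells, tj and Fas3, summed to 58.6 to 178.5 CPM, mostly from tj. Those of the germ line summed to 13.9 to 41.0 CPM, mostly from aub, with vas and bam at means of 0.218 CPM or less. The sums of both lists were lower in the copper-treated groups. Means of tj were 158.7 and 68.4 CPM in parental cells without and with copper, and 160.2 and 73.6 CPM in the line. Means of aub in the same order were 32.6 and 16.4 CPM, and 35.1 and 21.2 CPM. Lamellocyte markers summed to 250.8 to 276.0 CPM in parental cells, 202.3 to 257.6 CPM with copper, 257.6 to 286.1 CPM in the IntS6 line and 273.5 to 281.1 CPM with copper, mostly from mys and cher, and 0 of the 2 tested were called. Of the markers other than those of hemocytes, Fas3 was called, with a mean of 10.4 CPM in the IntS6 line and 22.6 CPM with copper.

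The copper response of the IntS6 line was larger than the parental response at 92 genes and smaller at 3, which is 1.13% and 0.0367%, or 1.16% together, of the 8174 tested (edgeR quasi-likelihood test, Benjamini-Hochberg adjusted p under 0.05). At an unadjusted p under 0.05 there were 860 genes (10.5%), where this cutoff would give a share of 0.05 with no difference at any gene. Among the 92, the median log2 difference was 0.99, the smallest was 0.37, and 45 exceeded 1. The largest other than that of IntS6 was 4.61, at a gene not named here. The calls were made on a large shared background, since copper moved 3159 genes (38.6%) in parental cells, 1577 up (19.3%) and 1582 down (19.4%), and 3479 genes (42.6%) in the IntS6 line, 1900 up (23.2%) and 1579 down (19.3%). A difference of responses carries the error of 4 groups, with a median SE of 0.187 on the log2 scale against 0.132 for either response alone. The count fell to 43 without parental library A, to 46 without IntS6-line library C, and to 48 without IntS6-line library B or without IntS6-line copper library A. When only these 4 groups were fitted, 62 genes were called, 59 higher and 3 lower, 60 of them among the 95. With no filter on low counts 238 were called, 217 higher and 21 lower. No spike-in RNA was used, so each value is relative to the other transcripts of its library, and fewer cells of a type and less RNA per cell cannot be told apart.

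**Figure D1:**
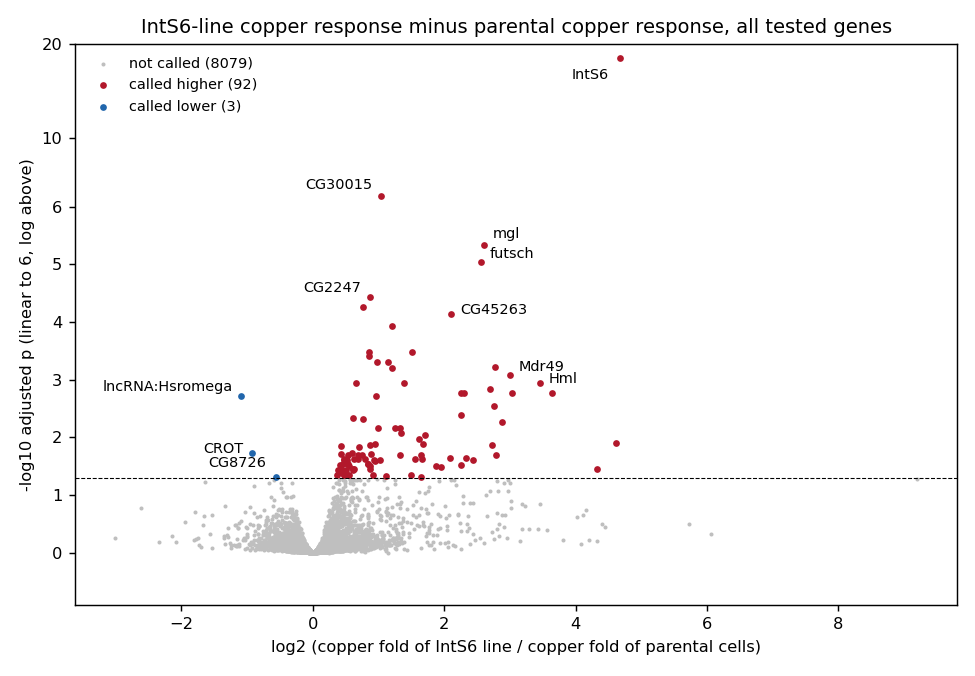
Each point is 1 of 8174 tested genes, with the log2 ratio of the 2 copper folds on the x axis and -log10 of the edgeR adjusted p on the y axis, which is linear up to 6 and logarithmic above. The 92 genes called higher (red) spread up to 4.67 for IntS6, while the 3 called lower (blue) lie between -0.57 and -1.09, and the dashed line marks an adjusted p of 0.05.

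The 92 genes fell into several patterns when the single libraries were read. At 78 of them all 3 induced libraries lay above the other 9, which was so for 8.27% of all tested genes. Parental libraries with and without copper overlapped at 42 of the 92 while the copper libraries of the line lay above its own controls, against 10.2% of all genes. In both kinds of cells the copper libraries lay above their controls at 29 of the 92, against 16.6% of all genes. At 9 genes the parental copper libraries lay below their controls and those of the line overlapped theirs (5.21% of all genes). At 9 others they lay below in parental cells and above in the line (0.343%), and at 2 they lay below in both (15.9%). Before copper the line overlapped parental cells at 79 of the 92 and 2 of the 3, against 90.4% of all genes. These counts describe genes chosen by the same libraries and carry no test.

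**Figure D2:**
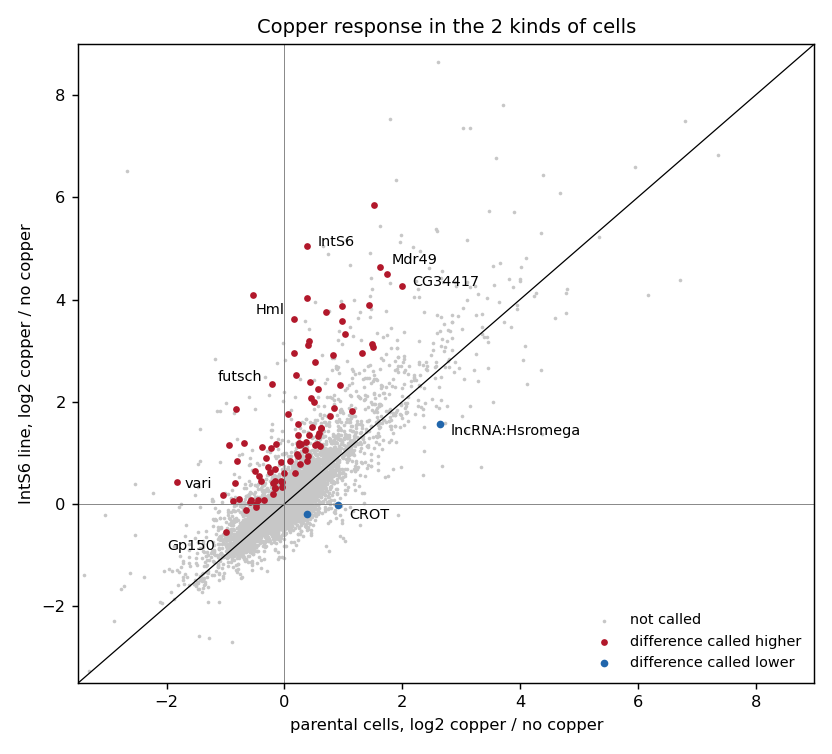
Each point is a tested gene, with its copper response in parental cells on the x axis and in the IntS6 line on the y axis, both as fitted log2 ratios, and 2 genes lie outside the axes. The diagonal marks equal responses, the 92 genes called higher (red) lie above it and the 3 called lower (blue) below it.

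Several large called differences were at genes that parental cells held at low levels in either condition. Hml (FBgn0029167, plus strand of chromosome 3L, 13846054 to 13860001) encodes hemolectin, a large clotting protein of plasmatocytes. It stood at 3.81, 1.96 and 1.81 CPM in parental libraries A, B and C and at 3.70, 3.07 and 1.65 CPM with copper. In the IntS6 line the values were 3.61, 2.13 and 2.45 CPM without copper and 47.9, 27.1 and 24.4 CPM with it. The copper-treated libraries of the line stood clear of the other 9, and library A was the highest of them. The response of the line exceeded the parental one 11.0-fold (log2 3.46 ± 0.55, adjusted p = 0.00115). The other 10 hemocyte markers were not called, although the summed markers were highest in the same 3 libraries, and the part of cell makeup in this difference was not tested.

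Glutamine synthetase 2, encoded by Gs2 (FBgn0001145, chromosome X, 11422832 to 11430197, plus strand), makes glutamine from glutamate and ammonia. Its transcript stood at 1.58, 0.946 and 0.871 CPM in parental cells and at 1.35, 2.90 and 1.12 CPM with copper, while the line went from 0.723, 0.466 and 1.43 CPM to 12.2, 11.5 and 11.6 CPM. The parental groups overlapped and the 3 induced libraries lay within 1 CPM of each other, well above the rest. The difference of responses was log2 3.03 ± 0.50 (adjusted p = 0.00173).

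Mdr49 (FBgn0004512, chromosome 2R, 12940323 to 12946347, minus strand), an ABC transporter gene of the multidrug resistance family, rose in both kinds of cells. Parental libraries went from 0.788, 0.568 and 0.943 CPM to 1.56, 2.29 and 3.30 CPM with copper, a 3.1-fold rise (adjusted p = 0.000249). Those of the line went from 0.867, 0.798 and 0.476 CPM to 20.5, 15.5 and 17.4 CPM, a 24.8-fold rise (adjusted p = 2.95e-12). No copper-treated library overlapped an untreated one in either kind of cell, and the responses differed by log2 3.00 ± 0.46 (adjusted p = 0.000822).

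A similar pair of rises was seen at mgl (FBgn0261260, chromosome X, 9358496 to 9500129, minus strand), which encodes megalin, an endocytic receptor of the LDL receptor family. Parental cells held 1.91, 1.39 and 2.18 CPM without copper and 3.06, 3.85 and 3.75 CPM with it. The line held 1.37, 1.53 and 1.43 CPM without copper and 19.1, 15.7 and 17.3 CPM with it. The 2 copper-treated groups were each above their controls and did not overlap each other, and the responses differed by log2 2.61 ± 0.26 (adjusted p = 4.59e-06).

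By contrast, futsch (FBgn0259108, chromosome X, 1409069 to 1453686, plus strand), the fly MAP1B-like microtubule-binding protein gene, did not pass the test for copper in parental cells. Parental values were 2.10, 1.89 and 2.25 CPM without and 1.99, 1.90 and 1.42 CPM with copper, 2 sets that overlap. In the line they were 2.24, 2.13 and 2.38 CPM without and 11.1, 10.8 and 12.4 CPM with copper. The log2 difference was 2.56 ± 0.27 (adjusted p = 9.11e-06), with 5.1% of its exon bases shared with Gr2a on the same strand.

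Of the other genes with large differences, IRSp53, which encodes an I-BAR protein that links membranes to actin, rose from 0.808 to 8.12 CPM (means) in the line and from 1.17 to 2.38 CPM in parental cells (log2 2.30 ± 0.38, adjusted p = 0.0017). Tig, which encodes tiggrin, an extracellular matrix ligand of integrins, rose from 0.739 to 10.9 CPM in the line and from 0.745 to 2.02 CPM in parental cells (log2 2.44 ± 0.55, adjusted p = 0.0245). The Tig call was lost without IntS6-line library B or C, IntS6-line copper library A, or parental library A or B, with adjusted p up to 0.188, and also when only the 4 groups were fitted (0.0774). Obp44a, an odorant-binding protein gene, went from 0.485 to 11.0 CPM in the line and from 0.954 to 3.11 CPM in parental cells (log2 2.75 ± 0.48, adjusted p = 0.00282). Its untreated libraries in the line, at 0.650, 0.466 and 0.340 CPM, lay below the parental ones at 0.788, 0.694 and 1.38 CPM. That lower start is part of the difference. It shares 19.1% of its exon bases with Pabp2 on the other strand, and reads of the 2 genes can be told apart only by a strand-aware count, a setting not given here.

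Genes known by number only included further members of this group. CG8086 reached 8.50 CPM in the induced line against 1.81 CPM in copper-treated parental cells (log2 difference of responses 2.88 ± 0.53, adjusted p = 0.00534). CG17739 reached 6.76 against 1.29 CPM (2.78 ± 0.41, adjusted p = 0.000607) and CG34417 reached 20.3 against 4.60 CPM (2.26 ± 0.37, adjusted p = 0.0017). In all 3 the induced libraries stood above the other 9. CG33099 was called at low counts, with 9, 27, 3 and 203 summed counts in parental cells, parental cells with copper, the IntS6 line and the IntS6 line with copper (adjusted p = 0.0351). That call was lost when only the 4 groups were fitted (0.0672) and without any of 8 single libraries, which were the 3 untreated IntS6-line libraries, IntS6-line copper libraries A and B, parental libraries A and C, and parental copper library A (adjusted p up to 0.287).

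**Figure D3:**
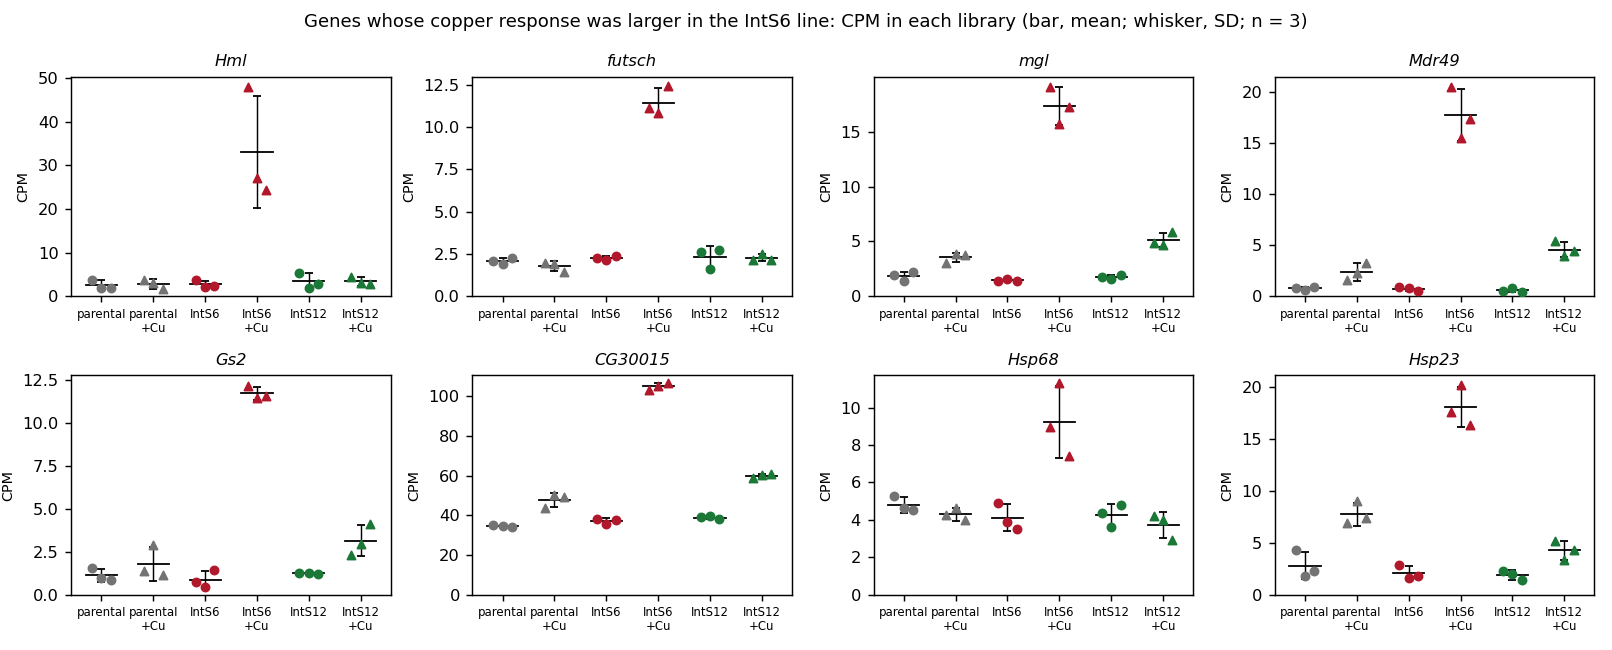
Each panel shows a gene in CPM by library, with circles for no copper, triangles for copper, bars for the mean and whiskers for the SD of 3 libraries, in parental cells (grey), the IntS6 line (red) and the IntS12 line (green). In all 8 panels the 3 copper-treated IntS6 libraries stand above every other library shown, as for Hml at 24.4 to 47.9 CPM against 1.65 to 3.81 CPM in parental cells.

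Smaller differences were often measured with less error, and some genes outside the rule for named genes are given here because their values were seen to be precise or clear in pattern. CG30015 had the smallest adjusted p after IntS6. Its values were 35.1, 34.5 and 33.9 CPM in parental cells, 43.6, 50.0 and 49.4 CPM with copper, 38.2, 35.5 and 37.4 CPM in the line and 103.3, 105.0 and 106.8 CPM in the induced line. Both copper-treated groups lay above their controls, and the line rose by 2.84-fold against 1.38-fold (log2 difference 1.04 ± 0.09, adjusted p = 3.1e-07). CG2247 rose from 27.9 to 62.4 CPM in the line and from 27.2 to 33.2 CPM in parental cells (0.88 ± 0.10, adjusted p = 3.73e-05).

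The genes wb, mew, Fas3 and zormin were also among the calls. They were put side by side after their values were seen and say nothing of matrix or adhesion genes as a group. Other laminin, collagen and integrin genes did not pass the test, with log2 differences of 0.19 for LanA, -0.15 for LanB1, -0.11 for LanB2, -0.43 for Col4a1, 0.35 for vkg and 0.27 for mys. The laminin alpha chain gene wb reached 5.99, 4.84 and 3.64 CPM in the induced line against 0.995, 0.726 and 1.27 CPM in copper-treated parental cells (log2 2.79 ± 0.60, adjusted p = 0.0205). The integrin alpha subunit gene mew rose in both kinds of cells, from 4.26 to 11.2 CPM in the line and from 5.25 to 7.89 CPM in parental cells (0.80 ± 0.18, adjusted p = 0.0236). Fas3, which encodes a homophilic adhesion protein of epithelia and neurons, reached 22.1, 21.5 and 24.1 CPM in the induced line. Its other 3 groups ran from 7.20 to 12.9 CPM, and the responses differed by log2 1.5 ± 0.21 (adjusted p = 0.000328). The Z-disc protein gene zormin rose 5.04-fold in the line and 1.93-fold in parental cells (1.38 ± 0.22, adjusted p = 0.00116). The wb call was lost without IntS6-line library B or C, IntS6-line copper library A, or parental library A or C (adjusted p up to 0.158). The mew call was lost without IntS6-line library A or B, IntS6-line copper library A, parental library A or C, or parental copper library B (up to 0.0958), with DESeq2 (0.0619) and when only the 4 groups were fitted (0.0672).

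Heat shock genes showed a larger copper response in the IntS6 line at several members. Of 7 Hsp70 and Hsp68 genes 3 were called higher and 0 lower, with a median log2 difference of 1.64, and of 3 small heat shock protein genes 2 were called higher, with a median of 0.75. Over all 8174 genes 1.13% were called higher and the median was 0.002. The 3 of 7 includes 2 of 6 near-identical Hsp70 copies, which are not separate measurements. Hsp68, an Hsp70-family chaperone, stood at 5.26, 4.61 and 4.50 CPM in parental cells and at 4.26, 4.63 and 3.97 CPM with copper. In the line it went from 4.91, 3.86 and 3.53 CPM to 8.96, 11.3 and 7.43 CPM, so the 3 induced libraries were above the other 9 (log2 1.32 ± 0.25, adjusted p = 0.00701). The 6 near-identical Hsp70 copies cannot be told apart by read counting and were also summed, an alternative chosen after seeing the data. Their sum was 17.8, 7.44 and 8.49 CPM in parental cells and 24.8, 17.9 and 16.6 CPM with copper. The line held 14.7, 7.12 and 5.09 CPM without copper and 58.4, 60.3 and 38.0 CPM with it, and the summed response differed by log2 1.74 ± 0.41 (adjusted p = 0.0327). The sum was fitted only with all 18 libraries, so whether its call holds with a library left out was not tested. Library A was the highest untreated library in both kinds of cells.

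Among single copies Hsp70Aa (log2 1.95 ± 0.45, adjusted p = 0.0322) and Hsp70Bbb (1.64 ± 0.41, adjusted p = 0.0496) were called, and both lost the call when only the 4 groups were fitted (0.097 for each). Hsp70Bbb also lost it with library sizes alone (0.0644) and with rRNA genes left out (0.0511). Hsp70Aa also lost it without IntS6-line library B or C, IntS6-line copper library A or B, parental library A, or copper-treated parental library B or C (adjusted p up to 0.222). Hsp70Bbb lost it without those same libraries or parental library C (up to 0.24).

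The small heat shock protein gene Hsp23 rose in both kinds of cells, from 4.27, 1.77 and 2.32 CPM to 6.89, 8.99 and 7.35 CPM in parental cells and from 2.89, 1.60 and 1.77 CPM to 17.6, 20.2 and 16.4 CPM in the line. The 2 copper-treated groups did not overlap (log2 1.64 ± 0.35, adjusted p = 0.0205). Hsp27 stood at 38.7, 38.7 and 37.1 CPM in the induced line and between 18.2 and 25.0 CPM in the other 9 libraries (0.75 ± 0.16, adjusted p = 0.0205). Leaving out IntS6-line library C or parental library A ended the call of either gene, as did leaving out IntS6-line library B for Hsp23 and IntS6-line copper library A for Hsp27 (adjusted p up to 0.162 and 0.0947).

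Of 9 genes for Hsf and chaperone cofactors 1 was called higher and 1 lower, with a median of 0.04. The co-chaperone gene stv, which encodes the BAG protein starvin, reached 25.9, 23.9 and 24.7 CPM in the induced line against 11.2, 14.3 and 11.7 CPM in copper-treated parental cells, and the other 6 libraries ran from 9.87 to 16.7 CPM (log2 0.88 ± 0.19, adjusted p = 0.0192). Its call was lost without IntS6-line library B or C, IntS6-line copper library A, parental library A or parental copper library A (adjusted p up to 0.0947), and when only the 4 groups were fitted (0.0694). Members not called included Hsp83 (log2 difference 0.01 ± 0.09), Hsc70-4 (0.03 ± 0.08), DnaJ-1 (0.28 ± 0.11) and Hsf itself (0.06 ± 0.12). Among the small heat shock protein genes tested, Hsp22 was not called either (0.72 ± 0.60, adjusted p = 0.745).

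The member called lower was lncRNA:Hsromega (FBgn0001234, chromosome 3R, 21296127 to 21317836, plus strand), a stress-induced noncoding RNA that gathers RNA-binding proteins in nuclear speckles. It rose in both kinds of cells, but less in the line. Parental libraries went from 49.7, 46.1 and 57.7 CPM to 365.6, 360.5 and 231.3 CPM, a 6.25-fold rise. Those of the line went from 60.2, 48.6 and 50.3 CPM to 157.9, 157.7 and 152.1 CPM, a 2.94-fold rise. The copper-treated groups did not overlap, with parental copper library C closest to the line, and the log2 difference was -1.09 ± 0.18 (adjusted p = 0.00194). It kept its call without any single library, and its log2 difference then ranged from -1.28 to -0.98. Within the stress genes listed, the heat shock genes called higher and this RNA thus differed in opposite directions.

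The other 2 genes with a smaller response were CROT (FBgn0039543, chromosome 3R, 27703379 to 27706751, minus strand), a carnitine acyltransferase gene, and CG8726. CROT rose with copper in parental cells, from 3.74, 3.98 and 4.64 CPM to 7.39, 7.82 and 7.95 CPM, and stood in the line at 4.26, 4.33 and 4.69 CPM without and 4.11, 4.56 and 4.48 CPM with copper. The parental groups were separate and those of the line overlapped (log2 -0.93 ± 0.20, adjusted p = 0.0185). The call was lost without IntS6-line library C, IntS6-line copper library A or parental library A (adjusted p up to 0.0748). CG8726 went from a mean of 13.6 to 17.7 CPM in parental cells and from 16.1 to 14.2 CPM in the line (-0.57 ± 0.14, adjusted p = 0.0496). Its untreated libraries in the line, at 15.5, 15.8 and 17.1 CPM, lay above the parental ones at 13.8, 14.3 and 12.8 CPM. The fall in the line alone did not pass the edgeR test (adjusted p = 0.131). It kept its call only without IntS6-line copper library C or parental copper library C, lost it without any other single library (up to 0.154), and also lost it when only the 4 groups were fitted (0.097), when library sizes alone set the scale (0.0644) and with DESeq2 (0.0658). It shares 12.7% of its exon bases with nito on the other strand.

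Another group of calls came from genes that copper lowered in parental cells and not, or less, in the IntS6 line. The Cdc25 phosphatase gene stg, which drives entry into mitosis, fell from 112.3, 104.2 and 108.7 CPM to 75.2, 64.7 and 78.1 CPM in parental cells. In the line it stood at 123.6, 114.2 and 108.3 CPM without copper and at 121.4, 107.3 and 125.0 CPM with it. The parental groups were separate while those of the line overlapped, and the responses differed by log2 0.61 ± 0.11 (adjusted p = 0.00456). It was the 1 member called among 32 DNA replication and mitosis genes, whose median log2 difference was -0.06 and whose median parental response was -0.44.

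Other genes with this pattern were chosen after their values were seen. The septate junction scaffold gene vari fell 2.06-fold in parental cells, from 11.3, 10.5 and 11.8 CPM to 4.97, 6.09 and 5.10 CPM. In the line its values of 8.60, 10.6 and 11.1 CPM without copper overlapped those of 9.99, 11.8 and 12.4 CPM with it (log2 1.21 ± 0.18, adjusted p = 0.000628). It shares 15.2% of its exon bases with Pomp on the other strand. Stuxnet, encoded by stx and a regulator of Polycomb protein stability, fell from 72.5, 74.8 and 62.8 CPM to 52.7, 44.6 and 44.8 CPM in parental cells and stood at 70.2, 69.9 and 64.9 and then 71.5, 74.7 and 71.5 CPM in the line (0.65 ± 0.10, adjusted p = 0.00114). Both differences kept their calls without any single library.

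For kuz, an ADAM metalloprotease gene that acts on Notch, the means went from 200.9 to 143.8 CPM in parental cells and from 189.0 to 181.3 CPM in the line (log2 0.42 ± 0.09, adjusted p = 0.014). Its untreated libraries in the line, at 187.8, 189.4 and 189.8 CPM, lay below the parental ones at 199.3, 205.6 and 197.8 CPM, and that lower start is part of the difference. The transcriptional repressor gene hry went from 92.7 to 72.6 CPM in parental cells and from 95.6 to 100.2 CPM in the line (0.42 ± 0.10, adjusted p = 0.03). Gp150, a leucine-rich transmembrane protein gene, fell in both, from 872.3 to 440.4 CPM in parental cells and from 881.7 to 599.7 CPM in the line (0.43 ± 0.09, adjusted p = 0.0192). These 3 small differences kept their sign but lost their calls when any of several single libraries was left out. The call of kuz was lost without IntS6-line library B or C, IntS6-line copper library A, parental library A or copper-treated parental library B (adjusted p up to 0.0777) and with library sizes alone (0.0644). That of Gp150 was lost without IntS6-line library B or C, IntS6-line copper library A, or parental and parental copper libraries A and B (up to 0.0837). Only without IntS6-line copper library B or parental library A was that of hry kept (up to 0.112 otherwise, 0.0537 with only the 4 groups fitted and 0.0598 with library sizes alone).

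CG45263 went opposite ways in the 2 kinds of cells. It fell from 4.66, 6.18 and 6.53 CPM to 3.48, 3.57 and 1.80 CPM in parental cells (adjusted p = 0.000874) and rose from 5.42, 6.32 and 7.40 CPM to 14.6, 14.6 and 13.7 CPM in the line (adjusted p = 6.55e-06). No copper-treated library overlapped its controls, and the responses differed by log2 2.11 ± 0.26 (adjusted p = 7.34e-05).

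**Figure D4:**
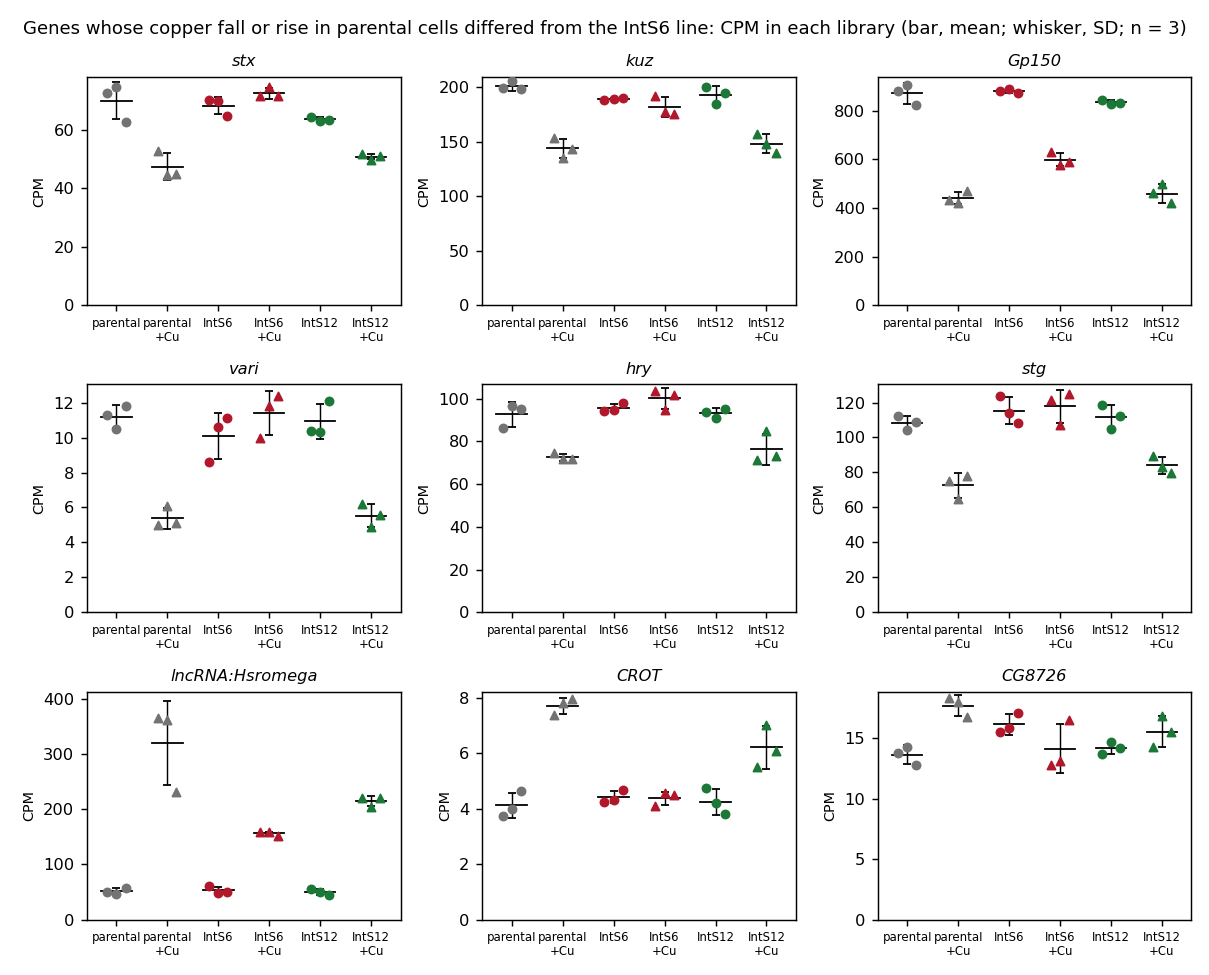
CPM by library for 9 genes, with circles for no copper, triangles for copper, bars for the mean and whiskers for the SD of 3 libraries. The copper-treated parental libraries (grey) lie below their controls for the top 6 genes while those of the IntS6 line (red) overlap or exceed theirs or, for Gp150, fall less, and for lncRNA:Hsromega, CROT and CG8726 the parental rise is larger.

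MtnA, whose promoter drives the transgene, rose from 3.22, 2.65 and 2.69 CPM to 285.2, 413.4 and 259.8 CPM in parental cells and from 2.82, 3.39 and 2.85 CPM to 494.7, 612.5 and 540.2 CPM in the line. The copper-treated groups did not overlap, and with copper the line stood 1.72-fold above parental cells (log2 0.78 ± 0.13, edgeR adjusted p = 0.000256). The difference of responses, which also carries the error of the low untreated levels, did not pass the test (log2 0.69 ± 0.32, adjusted p = 0.432). It did pass with no filter on low counts (0.0376) and without parental copper library B, the highest of its group (0.92, adjusted p = 0.0448). Of 11 genes that bind or carry copper and zinc, metallothioneins included, 1 was called higher, with a median of 0.25, or 0.25 over the 8 with at least 4 counts in each group. That member was ZnT63C, a zinc transporter gene, which went from 28.6 to 36.6 CPM in parental cells and from 25.6 to 52.7 CPM in the line (0.69 ± 0.15, adjusted p = 0.0234). Its call was lost without IntS6-line library B or C, IntS6-line copper library A, parental library A or parental copper library C (adjusted p up to 0.111) and with library sizes alone (0.0598).

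Among 13 Integrator subunit genes IntS6 alone was called, with a median of -0.02, and 0 of 7 PP2A genes (-0.02) and 0 of 20 genes for pausing and elongation factors (-0.09) were. Of 8 genes that earlier work described as attenuated by Integrator, 2 were called higher, Hml and pst, with a median of 0.92 over all 8 and over the 6 with enough counts. The share called higher over all tested genes was 1.13% and their median 0.002, and 2 calls in so short a list say little of the list. The antiviral gene pst rose from 26.6 to 58.6 CPM in parental cells and from 26.2 to 92.8 CPM in the line (log2 0.69 ± 0.15, adjusted p = 0.0205). Its call was lost without IntS6-line library B or C, IntS6-line copper library A or parental library A (adjusted p up to 0.103) and when only the 4 groups were fitted (0.0537). Other members had values of 0.48 ± 0.13 at kay, the fly Fos gene (adjusted p = 0.0709), and 1.68 ± 0.64 at peb (0.298).

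Metabolic and signalling lists held 1 or 2 calls each, against 1.16% of all genes called, and a single call in a list this short says nothing of the list. Gs2 was the 1 call among 7 genes for gluconeogenesis and glutamine (median 0.32), Mdr49 the 1 among 8 ABC transporters (0.37), futsch the 1 among 15 microtubule and synapse genes (0.14) and Hml the 1 among 19 plasmatocyte markers (0.32). Of 10 genes for lipolysis and fatty acid oxidation CROT was lower and whd, which encodes carnitine palmitoyltransferase, was higher (median 0.02). The level of whd went from 4.24 to 5.65 CPM in parental cells and from 3.40 to 8.68 CPM in the line (log2 0.94 ± 0.21, adjusted p = 0.0257), and 11.1% of its exon bases are shared with other genes on the other strand. The whd call was lost without IntS6-line library B, IntS6-line copper library A, parental library C, or parental copper library A or B (adjusted p up to 0.112), with DESeq2 (0.0518) and when only the 4 groups were fitted (0.0807). In 15 genes of EGFR, Ras and MAPK feedback (0.16) the call was edl, an antagonist of the Ets proteins Yan and Pointed, at 18.0, 17.3 and 18.1 CPM in the induced line and 8.39 to 12.7 CPM in the other 9 libraries (0.99 ± 0.19, adjusted p = 0.00692).

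No member was called against parental cells in the remaining lists, whose medians on the same log2 scale follow with the number of genes tested, and an adjusted p that misses the threshold does not show equal responses. Those of stress and metabolism were iron handling (6 genes, 0.09), Nrf2 antioxidant and glutathione genes (24 genes, 0.14), the ER unfolded protein response (17 genes, -0.04), ATF4 amino acid stress (14 genes, 0.25), aminoacyl-tRNA synthetases (20 genes, 0.13), glycolysis and lactate (14 genes, 0.28), sterol and fatty acid synthesis (16 genes, 0.01), and autophagy and lysosome genes (21 genes, -0.06). The Nrf2 list had a median parental copper response of 1.12 beside its median difference of 0.14. For cell identity and signalling they were crystal cell and lamellocyte markers (5 genes, 0.29), JNK (18 genes, 0.35), JAK-STAT (9 genes, 0.16), apoptosis (10 genes, 0.00), Toll and Imd (16 genes, 0.14), ecdysone response (16 genes, 0.16), actin cytoskeleton (20 genes, 0.09), and circadian and immediate early genes (8 genes, 0.45). Housekeeping lists stood at -0.07 for 111 replication-dependent histone copies, whose median parental response was -0.75, and at -0.06 for 87 cytosolic ribosomal protein genes and for 35 proteasome subunits. The last lists were spliceosomal snRNAs (23 genes, -0.13), small nucleolar RNAs (141 genes, -0.04), mitochondrially encoded genes (15 genes, -0.01), mitochondrial ribosomal proteins (72 genes, -0.11), nuclear genes of oxidative phosphorylation (64 genes, -0.12) and V-ATPase subunits (16 genes, -0.03).

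The IntS12 line, whose transgene has the same promoter, was used to ask whether a second induced line gave the same excess over parental cells. IntS12 rose there 11.1-fold, from 8.44 to 92.9 CPM (means). IntS6 in its own line rose 33.1-fold, from 71.4 to 2366 CPM. The subunit and the size of its induction thus differ together between the lines and cannot be told apart. The copper response of the IntS12 line differed from the parental one at 1 gene of 8174 (0.0122%), which was IntS12 itself (log2 3.93 ± 0.19, adjusted p = 6.1e-12). An unadjusted p under 0.05 was reached at 174 genes (2.13%). That is below the share of 0.05 that this cutoff would give with no difference at any gene. The responses of the 2 lines were then tested against each other, and 54 genes (0.661%) were called, 53 higher in the IntS6 line (0.648%) and 1, IntS12, lower (0.0122%). Of the lists with no call against parental cells, glycolysis and lactate and the crystal cell and lamellocyte markers each had 1 member called higher here. Those lists share the gene Treh. With no filter on low counts 155 genes were called, 142 higher and 13 lower. That comparison shares the 6 IntS6-line libraries with the one above, so the 2 sets of calls are not independent. The count fell to 24 without IntS6-line library B, to 28 without IntS6-line library C, IntS6-line copper library A or IntS12-line library A, to 30 without IntS12-line library C and to 35 without IntS12-line copper library C.

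Of the 39 called genes named here, 22 were also called against the IntS12 line and 17 were not, where 0.661% of all tested genes were called. The 39 had been called in the comparison with parental cells, which uses the same IntS6-line libraries, so this overlap carries no test. Several of these 22 calls were lost when 1 library was left out, in some cases almost whichever library it was. The log2 differences kept their sign, as for CG8086 at 2.01 to 2.73. CG8086 kept its call only without IntS12-line library A (adjusted p up to 0.196 otherwise), and stv and pst only without IntS6-line library A (up to 0.174 and 0.215). Both stv and pst also lost it with library sizes alone (0.0642 and 0.09). Obp44a kept it only without IntS6-line library A or copper library C of either line (up to 0.259 otherwise). The call of whd was kept only without IntS6-line library C, IntS6-line copper library B or C, or IntS12-line copper library B (up to 0.145 otherwise). Gs2 lost its call without IntS12-line library A or C or IntS6-line library B (up to 0.0767), and IRSp53 without IntS12-line library A or IntS6-line library B (up to 0.0898). CG34417 lost it without IntS12-line library A (0.114) and CG17739 without IntS12-line library C (0.0687). Hml stood at 4.47, 2.98 and 2.71 CPM in the copper-treated IntS12 line, near its parental level, and the responses of the 2 lines differed by log2 3.65 ± 0.51 (adjusted p = 0.000326). For futsch the copper-treated IntS12 line held 2.14, 2.51 and 2.17 CPM (2.37 ± 0.26, adjusted p = 1.59e-05), and for CG30015 59.0, 60.2 and 60.7 CPM (0.88 ± 0.09, adjusted p = 3.72e-06). In all 3 the induced IntS6 libraries lay above these values without overlap. The values for mgl, at 4.90, 4.67 and 5.82 CPM, lay between those of parental cells and the IntS6 line with copper (2.02 ± 0.26, adjusted p = 0.000157).

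Heat shock genes differed between the lines as well, at log2 1.36 ± 0.26 for Hsp68 (adjusted p = 0.00891), 0.87 ± 0.16 for Hsp27 (0.0083) and 1.98 ± 0.38 for Hsp23 (0.0125). Without IntS12-line library A or IntS6-line library B or C the call of Hsp23 was lost (adjusted p up to 0.0986). The summed Hsp70 copies were not called (1.02 ± 0.49, adjusted p = 0.589), and this gene family stood at 3.72, 2.93 and 2.48 CPM in the untreated IntS12 line, below all untreated parental and IntS6-line libraries. Mdr49, with 5.39, 3.93 and 4.40 CPM in the copper-treated IntS12 line, was not called either (1.66 ± 0.47, adjusted p = 0.153), nor were Tig (1.55 ± 0.61, 0.424) and lncRNA:Hsromega (-0.54 ± 0.18, 0.304). For lncRNA:Hsromega the copper-treated IntS12 line held 219.7, 204.1 and 220.4 CPM, between the other 2 kinds of cells, and a call appeared with no filter on low counts (0.000638) and when only those 4 groups were fitted (0.0236). Among genes that fell in parental cells, vari differed between the lines (1.14 ± 0.18, adjusted p = 0.00181), while stg (0.44 ± 0.11, 0.0759) and stx (0.41 ± 0.10, 0.0829) did not pass. With DESeq2 (0.0233 and 0.0299) and with only those 4 groups fitted (0.0445 and 0.0236) stg and stx did pass, as Mdr49 did with no filter on low counts (0.0166).

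**Figure D5:**
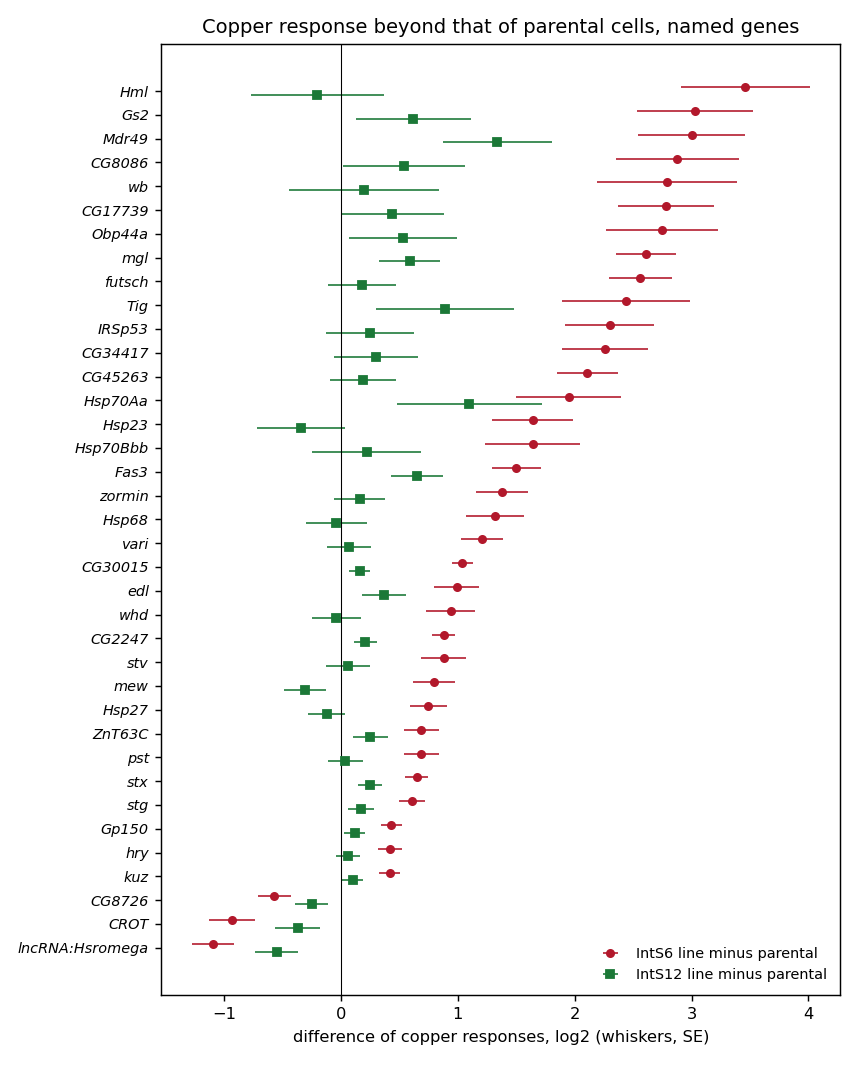
Log2 difference from the parental copper response for 37 named genes in the IntS6 line (red circles) and the IntS12 line (green squares), with whiskers for the SE, where both differences use the same 6 parental libraries. IntS6-line values run from -1.09 to 3.46, and none of the IntS12-line values shown passed the test.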

How the data were processed

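The deposited table holds estimated counts per FlyBase gene identifier, made by the authors, of which 13.4% were not whole numbers. Per the labels' protocols the RNA was depleted of rRNA and sequenced strand-specifically. Per the submitters' processing notes, Trimmomatic 0.39 and featureCounts were used, with the builds dm6 and BDGP6. Neither the aligner nor the annotation release nor the strand setting is given in the sources used here. Group and replicate letter came from the sample titles. Gene symbols were found for 17626 of 17753 identifiers, and coordinates and overlaps came from the BDGP6.54 annotation.

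After rounding to whole numbers, the counts were fitted with edgeR 4.0.16 in R 4.3.3, using TMM factors (0.96 to 1.07 over the libraries) and edgeR's default expression filter (8174 of 13350 genes with any count remained). All 18 libraries entered 1 fit with 6 group means, which left 12 residual degrees of freedom (prior 9.62, biological coefficient of variation 8.02%). Differences of copper responses were tested as contrasts with the quasi-likelihood test, and a call is an adjusted p (Benjamini-Hochberg, over all tested genes) under 0.05. Each SE is the absolute log2 value over the root of F. CPM used TMM-scaled library sizes with rRNA genes kept. The script was tested on simulated data. Every replicate pair differed by more than counting noise, so all 3 libraries of a group were kept.

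The comparison and the 40 gene lists were chosen with earlier results of these data known. Named genes were IntS6, IntS12 and MtnA, and per direction the 12 largest called differences with at least 4 counts in each group, 5 CPM in the highest group and responses that did not overlap between libraries (on log2 of CPM plus 1), filled up by smallest p. Up to 3 called genes at lower counts, up to 4 called members per list and the 3 largest per direction against the IntS12 line were added. A further 12 genes are outside this rule and were chosen after their values were seen. Of the called identifiers 4 had no symbol and are not named. Alternatives were DESeq2 1.42.0, library sizes alone, no filter, rRNA genes left out, a fit of only the groups compared, a replicate block, an additive CPM scale, and each library left out. List symbols without a match in the name table were left out.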

Additional observations from a re-analysis of the deposited data

Results flagged for a closer look

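Copper responses differed between the IntS6 line and parental cells, by a test of the difference itself, at 95 genes. Among the named ones the log2 differences above 2 were those of IntS6 (4.67), Hml (3.46), Gs2 (3.03), Mdr49 (3.00), CG8086 (2.88), wb (2.79), CG17739 (2.78), Obp44a (2.75), mgl (2.61), futsch (2.56), Tig (2.44), IRSp53 (2.30), CG34417 (2.26) and CG45263 (2.11). CG33099 had a fitted value of 4.32, which rests on 3 counts in the untreated line and is no bound. Between 1 and 2 stood Hsp70Aa (1.95), Hsp70Bbb and Hsp23 (1.64 each), Fas3 (1.5), zormin (1.38), Hsp68 (1.32), vari (1.21) and CG30015 (1.04). Smaller differences were those of edl (0.99), whd (0.94), CG2247 and stv (0.88 each), mew (0.80), Hsp27 (0.75), ZnT63C and pst (0.69 each), stx (0.65), stg (0.61), Gp150 (0.43), kuz and hry (0.42 each). Below 0 were lncRNA:Hsromega (-1.09), CROT (-0.93) and CG8726 (-0.57).

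The IntS6 line and the IntS12 line differed in the same kind of test at 54 genes, IntS12 (-3.84) and IntS6 (4.68) among them. The other named genes were Hml (3.65), Gs2 (2.41), futsch (2.37), CG8086 (2.35), CG17739 (2.34), Obp44a (2.23), IRSp53 (2.05), mgl (2.02), Hsp23 (1.98), CG34417 (1.97), CG45263 (1.92), Hsp68 (1.36), zormin (1.22), vari (1.14), mew (1.11), whd (0.99), CG30015 (0.88), Hsp27 (0.87), stv (0.82), CG2247 (0.67) and pst (0.64). The calls of CG8086, Obp44a, whd, stv and pst were each lost without 8 to 11 of the 12 single libraries, with adjusted p up to 0.196, 0.259, 0.145, 0.174 and 0.215. Both comparisons use the 6 libraries of the IntS6 line.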

How the results depend on the processing

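The 95 calls against parental cells became 238 with no filter on low counts (217 higher, 21 lower), 62 when only the 4 groups were fitted, 103 with DESeq2, 75 with library sizes alone and 91 with rRNA genes left out, and ranged from 43 to 99 with 1 library left out. The 54 calls against the IntS12 line became 155 with no filter (142 higher, 13 lower) and ranged from 24 to 52 with 1 library left out. Of the 95 genes, 92 remained among the 238 and 60 among the 62. A replicate block on the letters A, B and C gave 151 (144 higher, 7 lower) and 76 calls. Same-letter deviations from the group means correlated above 0.1 in 16 of 18 pairs, not in all. The labels number the libraries letter by letter, all A first, then B, then C, but do not state what the libraries of a letter share. The unblocked counts are therefore the ones reported, and the p-values given leave out any such pairing. The 6 pairs with and without copper of the same cells correlated at 0.14 to 0.49, and each of 12 libraries correlated best with its own letter when correlations were averaged over the other 3 groups, though not in every single pair of groups, a hint from the data and not the design. The block ended no call of a named gene against parental cells. Signs changed at 2 values that were not called: IntS12 went from 0.09 to -0.06 without IntS6-line copper library B (range -0.06 to 0.25 over single libraries left out), and CG33099 against the IntS12 line went from 1.35 to -0.48 without IntS12-line library A (range -0.48 to 2.18). On an additive CPM scale all 41 named differences from parental cells kept their direction. With library sizes alone the median of all genes was 0.025 in both comparisons, against 0.002 and -0.003. Depth limits the values of genes with few counts in the uninduced groups. The causes were not tested.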
